A study of Mus musculus with 7 samples.

Results

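Tissue retention and egress genes were followed in group 2 innate lymphoid cells (ILC2s), lymphocytes without rearranged antigen receptors that live in tissues and respond to interleukin-33 through its receptor ST2. The 7 genes were Klf2, S1pr1, S1pr4, Cd69, Rgs1, Rgs2 and Gpr183, taken by their symbols from the 55335 gene identifiers of the deposited tables, and all 7 were among the 17015 genes that passed the filter on low counts. ILC2s had been sorted from mouse hearts as CD45+, lineage-, ST2+ cells, and their RNA had been amplified as full-length cDNA before sequencing. There were 3 libraries of naive hearts and 4 of cardiac allografts, and each was a pool of 4 to 7 hearts. The allografts came from BALB/c donors, had been placed in C57BL/6 recipients, a combination that is acutely rejected, and were taken 7 days later. No other treatment or altered gene is given for either group, neither strain nor age is given for the naive hearts, and the label of 7 days stands on them too. Cells of the donor and of the recipient could both be sorted from a graft and are not separated in these pools. The comparison between the groups asked how ILC2s found in a rejecting graft differ from those of the resting heart.

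Lymphocytes leave tissues by following sphingosine 1-phosphate (S1P), a lipid that is scarce in tissue and abundant in blood and lymph. The transcription factor KLF2 switches on S1pr1, the receptor that senses this gradient, and CD69 binds that receptor at the membrane and takes it inside the cell, so that low KLF2 and high CD69 go with cells that stay. The RGS proteins shorten the signals of the G proteins that such receptors use, and GPR183 (also called EBI2) guides cells within tissue towards oxysterols, oxidized forms of cholesterol.

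In GRCm38 (mm10) with GENCODE M21, all 7 are protein-coding genes. Klf2 lies at chr8:72319033-72321656 on the plus strand. The other genes are on the minus strand: S1pr1 at chr3:115710433-115715072, S1pr4 at chr10:81497747-81500132 as a single exon, Cd69 at chr6:129267325-129275436, and Gpr183 at chr14:121952551-121965195. Rgs2 at chr1:143999338-144004161 and Rgs1 at chr1:144242296-144249242 are neighbours on the same strand, 238.1 kb apart, with 1 protein-coding gene, their relative Rgs13, between them. Gpr183 is overlapped by Ubac2 on the opposite strand, and whether the counting used strand is not given in the sources used here. No exon base of Gpr183 is shared with an exon of Ubac2, and Ubac2 stood between 11.5 and 71.1 CPM (counts scaled to the library total) over the 7 libraries. The other 6 genes overlap no annotated gene.

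RefSeq promoter sequences matched 4 of the 7 genes (Klf2, S1pr4, Rgs2 and Gpr183). The stretches of Klf2, Rgs2 and Gpr183 from 250 to 51 bases before the RefSeq start are printed in gene direction because these 3 genes represent the different patterns described next: the gene whose fitted change was below 0 in every fit, the most abundant gene, and the gene that stood higher in every graft. Klf2 is chr8:72318812-72319011 (+), Rgs2 is chr1:144004200-144004399 (-) and Gpr183 is chr14:121965244-121965443 (-), all in GRCm38.p6. Capitals mark motif matches, TAAATTTA (a MEF2 core) in Klf2 and CACCC (the box bound by KLF proteins) in Rgs2.
Klf2: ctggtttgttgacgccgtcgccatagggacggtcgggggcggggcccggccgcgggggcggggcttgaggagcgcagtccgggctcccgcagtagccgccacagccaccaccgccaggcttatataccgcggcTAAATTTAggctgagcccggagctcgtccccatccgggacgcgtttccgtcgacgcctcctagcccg
Rgs2: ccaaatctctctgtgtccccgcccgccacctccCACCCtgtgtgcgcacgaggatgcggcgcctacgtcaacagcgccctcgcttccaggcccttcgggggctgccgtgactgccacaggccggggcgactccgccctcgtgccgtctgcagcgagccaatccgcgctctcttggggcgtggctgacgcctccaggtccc
Gpr183: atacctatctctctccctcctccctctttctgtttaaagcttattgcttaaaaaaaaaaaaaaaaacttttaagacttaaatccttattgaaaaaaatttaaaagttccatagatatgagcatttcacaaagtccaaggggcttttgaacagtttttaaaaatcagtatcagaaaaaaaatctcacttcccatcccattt
Guanine and cytosine made up 70.5% of the Klf2 stretch, 71.0% of the Rgs2 stretch and 29.5% of the Gpr183 stretch. TAAATTTA, which was picked after the Klf2 sequence had been seen, began at -117 (bases counted back from the RefSeq start of Klf2) and was found on either strand in 0.4049% of 32851 promoter windows of the same length. CACCC began at -217 from the Rgs2 start, was also present on the reverse strand in the S1pr4 window, and was found in 44.4% of all windows. TGACGTCA (the cyclic AMP response element, 0.828% of windows), TGANTCA (the AP-1 site, 5.574%) and TATAAA (9.141%) matched in none of the 4 windows. The windows end 51 bases before the start, so a motif nearer to the start would not have been found.

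Depth was high, with total counts from 29107326 to 53044907 per library, so that 3 counts, the limit that a count of 0 allows, corresponded to 0.0566 to 0.103 CPM. These limits cover counting error only, since amplified reads without molecular identifiers are not independent molecules. Genes with any count numbered 15820 in naive 1, 20254 in naive 2, 13864 in naive 3 and 19235 to 21354 in the grafts. Naive 1 and naive 3 thus had the fewest genes, with totals of 53044907 and 43591167 counts. A count of 0 there may be a transcript lost before sequencing, which was not tested. Folds against 3 counts are therefore no lower bounds on the true fold. The libraries differed in what else they contained. The summed level of 10 ILC2 markers (among them Il1rl1, which encodes ST2, and Gata3) was 10487 CPM in naive 1, 1152 in naive 2, 14707 in naive 3 and 10106 to 10809 in the allografts. Il1rl1 itself stood at 6.79 CPM in naive 2 against 343 to 756 CPM in the other 6 libraries, so that naive 2 went against its label as a sort of ST2+ cells. Naive 2 also held 533 CPM of 8 endothelial genes against 8.26 to 51.0 elsewhere, 10382 CPM of 8 kidney tubule genes against 69.8 to 305, and 26.5% mitochondrial counts against 2.04% to 3.11%. Naive 3 held 35959 CPM of 12 genes that respond to tissue handling, led by Fos, Dusp1 and Junb, against 9827 to 15359 elsewhere. The 10 T cell markers summed to 348, 31.1 and 1085 CPM in naive 1 to 3 and to 1069 to 1270 CPM in the allografts. Most of that sum was Trbc1 (76.5, 5.78 and 543 against 481 to 584 CPM), Trbc2 (182, 10.97 and 363 against 383 to 481 CPM) and Cd3g (79.0, 6.00 and 124 against 175 to 219 CPM), the last 2 of which did not overlap between the groups. Cd247 stood at 0 to 0.659 CPM in the naive libraries and 4.36 to 13.3 CPM in the grafts. Cd3d went the other way in naive 3, with 1.68, 2.48 and 32.5 CPM in naive 1 to 3 against 3.57 to 8.64 CPM in the grafts. Cd4 was also highest in naive 3, at 11.6 CPM, with at most 0.721 CPM in any graft. Cd3e was at most 1.24 CPM and Cd8a at most 2.25 CPM in any library. The 5 natural killer cell markers summed to 0.641, 6.62 and 30.7 CPM in naive 1 to 3 and to 35.1 to 59.1 CPM in the grafts, without overlap. The 6 B cell markers summed to 117, 6.22 and 0 CPM in naive 1 to 3 (Cd79b alone gave the first of these) and to 89.98 to 146 CPM in the allografts, where Ms4a1 stood at 13.6 to 34.1 CPM against 0 in each naive library. In pooled RNA, fewer cells of a type and less RNA per cell cannot be told apart. The 7 genes are therefore given per library, and their tests with all 7 libraries and without naive 2.

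**Figure D1:**
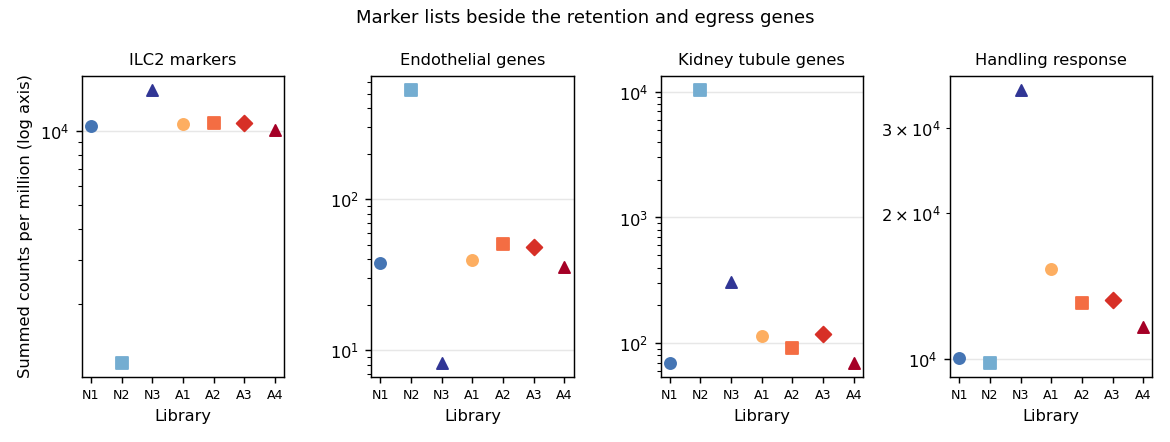
Summed CPM (log axes) of the ILC2, endothelial, kidney tubule and handling-response gene lists in naive 1 to 3 (N1 to N3, blue) and allograft 1 to 4 (A1 to A4, orange to red), with 1 point a library. Naive 2 is lowest for ILC2 markers (1152 CPM) and highest for endothelial (533 CPM) and kidney tubule genes (10382 CPM), and naive 3 is highest for handling-response genes (35959 CPM).

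None of the 7 genes passed the threshold of an adjusted p of 0.05 between allograft and naive libraries in edgeR's quasi-likelihood test. Over all genes tested, 6 of 17015 passed, which is 0.0353%. Without naive 2 the genes past the threshold were 560 of 18037 (3.1%), of which 483 had at most 3 counts in both remaining naive libraries, and again 0 of the 7 were among them. DESeq2 called 0 of the 7 as well, against 4.44% of the 28138 genes with a count in any library. This set includes genes too low for the edgeR filter, so the shares of the 2 methods are not directly comparable. At an unadjusted p under 0.05 the number was 0 of 7 with all libraries (10.3% of all genes), 2 without naive 2 (Gpr183 and Klf2, against 20.2% of all genes) and 1 with DESeq2 (Klf2, against 11.3%), so that none of these shares can be read as particular to the 7. The 7 genes spread more widely among the naive libraries, as tested genes did in general. The coefficient of variation (SD over mean) of their CPM had a median of 15.8% among the allografts and 92.5% among the naive libraries. The median over 8835 tested genes with a mean of at least 10 CPM was 20.1% and 71.2%. Each of the 7 varied more among the 3 naive pools than among the 4 graft pools. This held without naive 2 as well, where the coefficient over the 2 remaining naive libraries was 36.1% (Rgs1) to 141% (S1pr1).

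**Figure D2:**
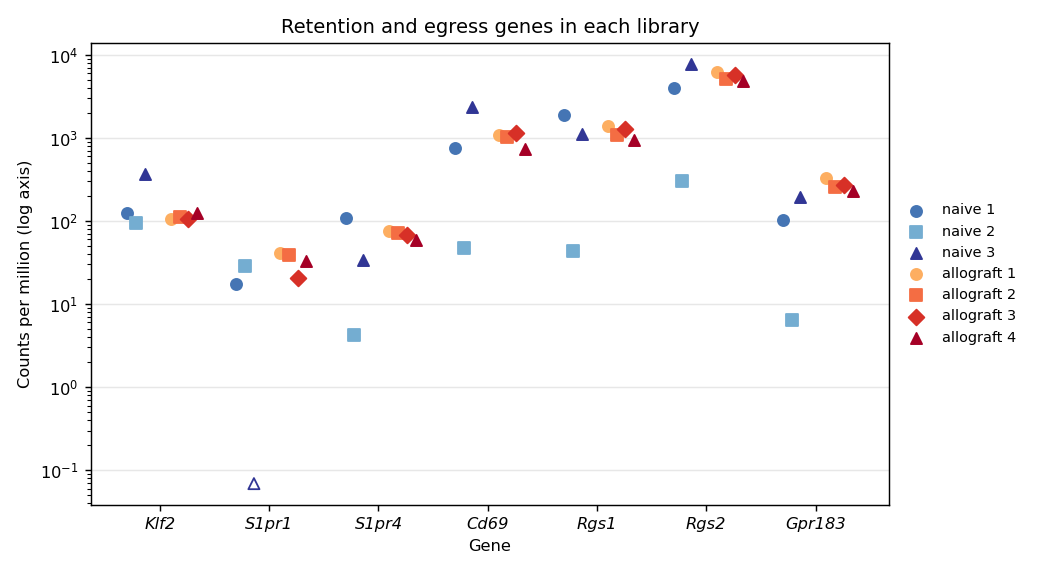
CPM (log axis) of the 7 genes, with 1 point a library, naive in blue and allograft in orange to red, and the open triangle marking S1pr1 in naive 3, where no read was counted, at the level of 3 counts. The 4 graft points of each gene lie close together, and naive 2 is the lowest point for every gene except S1pr1.

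Klf2, the regulator that keeps lymphocytes quiescent and able to recirculate, was not higher than the highest naive library in any graft. Its level was 126, 93.5 and 369 CPM in naive 1 to 3, and 105, 112, 105 and 127 CPM in allograft 1 to 4. Naive 3 stood far above all other libraries, and the grafts lay between naive 2 and a level just above naive 1, so that the groups overlapped. The naive mean was 196 ± 151 CPM (SD, n = 3), and the graft mean was 112 ± 10.0475 CPM (SD, n = 4). The log2 fold change (allograft over naive) was -0.95 with a standard error of 0.439 and an adjusted p of 0.532 in edgeR's quasi-likelihood test. Without naive 2 it was -1.21 ± 0.411 (SE) with an adjusted p of 0.186, and 3 of 4 grafts were below both remaining naive libraries. Without naive 3 it was -0.23 with an adjusted p of 0.654, the smallest size among all fits. The mean CPM of the remaining naive libraries was then 110 ± 23.2 (SD), slightly below the graft mean. Naive 3 was also the library with the highest handling-response level (Fos at 8410 CPM against 1917 to 3216 in the other libraries), and the part of this in the Klf2 value was not tested.

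S1pr1, the receptor through which lymphocytes read the S1P gradient, was the least abundant of the 7 genes per length by the mean of either group. Naive 1 had 17.3 CPM (917 counts), naive 2 had 29.1 CPM (1322 counts) and naive 3 had 0 counts. The allografts had 41.2, 39.1, 20.6 and 33.3 CPM. All 4 grafts were above naive 1 and naive 3, and 3 of 4 were above naive 2. The naive mean of 15.4 ± 14.6 CPM (SD, n = 3) and the graft mean of 33.5 ± 9.26 CPM (SD, n = 4) differed by 0.73 ± 1.56 on the log2 scale in the fit (SE; adjusted p = 0.943). Without naive 2 the fold change was 1.94 ± 1.85 (SE) with an adjusted p of 0.625, and without naive 3 it was 0.17. S1pr1 is also strongly expressed by endothelium, and naive 2, whose S1pr1 was the highest of the naive libraries, held 15.0 CPM of the endothelial cadherin gene Cdh5 against 0 to 3.75 CPM elsewhere, with Kdr at 78.5 and Emcn at 251 CPM. The part of endothelial RNA in that value was not tested. Zeros at this level were counted for comparison: among 2934 genes with a mean of 20 to 50 CPM in the allografts, a count of 0 was found for 216 (7.36%) in naive 3, 71 (2.42%) in naive 2, 40 (1.36%) in naive 1 and 0 in each allograft. This range of levels was chosen after the zero had been seen.

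S1pr4, an S1P receptor mostly restricted to blood cells, was intermediate in every graft. It stood at 109, 4.24 and 33.9 CPM in naive 1 to 3 and at 76.8, 71.7, 67.8 and 58.4 CPM in allograft 1 to 4. The grafts lay between naive 1 and naive 3 without exception. Its log2 fold change was 0.46 ± 0.780 (SE) with an adjusted p of 0.923. The value was -0.09 without naive 2, the library poor in ILC2 markers, and 1.72 without naive 1 (unadjusted p = 0.0486, adjusted p = 0.281, edgeR's quasi-likelihood test), so that the direction turned without naive 2.

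Cd69, which encodes the lectin-like membrane protein that pulls S1PR1 from the surface and is an early sign of activation, was abundant in all libraries other than naive 2. The naive libraries had 757, 46.8 and 2357 CPM, and the allografts had 1086, 1018, 1136 and 728 CPM. Naive 3 was above and naive 2 far below every graft, whereas naive 1 fell within the range of the grafts. Group means were 1053 ± 1183 CPM (SD, n = 3) and 992 ± 182 CPM (SD, n = 4), and the log2 fold change was -0.14 ± 0.923 (SE; adjusted p = 0.988). It was -0.71 without naive 2 and 1.28 without naive 3, with adjusted p of 0.416 and higher. Cd69 is itself induced quickly on handling and stimulation. The highest Cd69 level fell in the library with the highest handling-response genes, and their part in it was not tested.

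Rgs1 encodes a brake on inhibitory-type G proteins that is high in lymphocytes lodged in tissue. Its level was 1883, 43.8 and 1118 CPM in naive 1 to 3 and 1393, 1076, 1277 and 955 CPM in allograft 1 to 4. Of the 7 genes it was, with S1pr4, 1 of 2 whose highest library was naive 1. The grafts overlapped naive 3 and stayed below naive 1, and the log2 fold change was 0.19 ± 0.878 (SE; adjusted p = 0.979), against -0.39 ± 0.270 (SE; adjusted p = 0.463) without naive 2.

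Rgs2, whose product acts mainly on the Gq class of G proteins, was per length the most abundant of the 7 in every library. The naive libraries had 4021, 301 and 7697 CPM and the allografts 6303, 5139, 5687 and 4879 CPM. By FPKM, a level scaled to gene length and depth, it ranked between 24 and 51 among all genes in the 6 libraries other than naive 2, where it ranked 605. The grafts lay between naive 1 and naive 3. The log2 fold change was 0.40 ± 0.842 (SE; adjusted p = 0.941) with all libraries and -0.15 ± 0.299 (SE; adjusted p = 0.850) without naive 2.

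Gpr183, the oxysterol receptor, was the only one of the 7 with every graft above every naive library. It stood at 103, 6.35 and 192 CPM in naive 1 to 3 and at 333, 257, 274 and 231 CPM in allograft 1 to 4. The lowest graft exceeded the highest naive library, so that the groups did not overlap. Means were 100.6 ± 93.0 CPM (SD, n = 3) and 274 ± 43.2 CPM (SD, n = 4), and the log2 fold change was 1.39 ± 0.832 (SE), a fold of 2.63, with an adjusted p of 0.677 in edgeR's quasi-likelihood test. Without naive 2 it was 0.84 ± 0.332 (SE), a fold of 1.78, with an unadjusted p of 0.0429 and an adjusted p of 0.240, and without naive 3 it was 2.30. A complete separation in this direction was found for 12.5% of all genes tested (2131 of 17015), and for 21% without naive 2 (3794 of 18037), where S1pr1 joined Gpr183. Complete separation with every graft lower was found for 0 of the 7 in both cases, against 2.15% of all genes and 7.15% without naive 2. B cells also express Gpr183, and the B cell marker Ms4a1 was counted in every graft (13.6 to 34.1 CPM) and in 0 of the 3 naive libraries. Naive 3 reached 192 CPM of Gpr183 with all 6 B cell markers at 0. The T cell and natural killer cell sums were also higher in the grafts than in naive 1 and naive 2, with naive 3 at 1085 and 30.7 CPM. The part of RNA of these 3 cell types in the graft values was not tested.

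**Figure D3:**
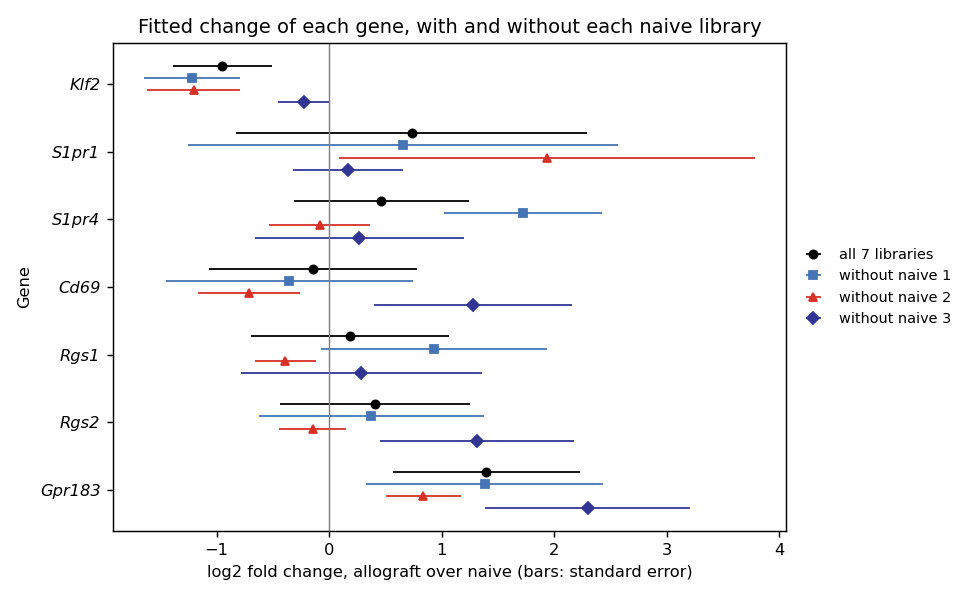
Log2 fold change of each gene (allograft over naive, edgeR; bars are ± 1 standard error) with all 7 libraries and without each naive library in turn. Klf2 lies below 0 in all 4 fits, Gpr183 above 0, and S1pr1 also above 0 (0.17 to 1.94). Cd69, Rgs1, Rgs2 and S1pr4 change sign with the naive library left out.

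Levels of different genes can be set side by side per length, on FPKM. Among the allografts the order was Rgs2 at 1311 ± 146, Rgs1 at 146 ± 24.1, Cd69 at 132 ± 24.2, Gpr183 at 81.8 ± 12.6, Klf2 at 52.5 ± 4.77, S1pr4 at 24.8 ± 2.74 and S1pr1 at 9.49 ± 2.60 FPKM (mean ± SD, n = 4). Each gene exceeded the next in all 4 grafts, except that Rgs1 exceeded Cd69 in 3 of 4. The ranges of Rgs1 and Cd69 overlapped, as did those of Cd69 and Gpr183, and no other neighbours overlapped. Among the naive libraries the order of means was Rgs2 at 973 ± 899, Cd69 at 143 ± 161, Rgs1 at 128 ± 116, Klf2 at 94.2 ± 71.6, Gpr183 at 30.7 ± 28.4, S1pr4 at 17.995 ± 19.7 and S1pr1 at 4.56 ± 4.38 FPKM (n = 3). There the ranges of all neighbours overlapped. Klf2 stood above Gpr183 in 3 of 3 naive libraries and below it in 4 of 4 grafts, a reversal that was noticed in the data and was not tested.

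Ratios between 2 genes of the same library do not depend on how libraries are scaled to each other. The log2 FPKM ratio of Cd69 to Klf2 was 0.77, -2.82 and 0.86 in naive 1 to 3 and 1.55, 1.37, 1.61 and 0.71 in allograft 1 to 4. It was thus above all naive libraries in 3 of 4 grafts, and differed by 1.71 between the group means (exact two-sided permutation p = 0.171, adjusted over 4 ratios 0.686). Without naive 2 the difference was 0.50 (exact permutation p = 0.400, adjusted 0.533). Cd69 to S1pr1 stood at 4.36 and -0.41 in naive 1 and 2, and at 3.63, 3.61, 4.69 and 3.36 in the grafts. In naive 3 it was 13.97 with S1pr1 set to 3 counts, here and in the means. The graft values fell between those of naive 1 and naive 2 apart from allograft 3, which passed naive 1 (difference -2.15, exact permutation p = 0.686, adjusted 0.914). S1pr1 to S1pr4 was -3.01, 2.43 and, with S1pr1 again set to 3 counts, -9.30 in naive 1 to 3. In the grafts it was -1.25, -1.23, -2.07 and -1.17, with a difference of 1.86 (exact permutation p = 0.629, adjusted 0.914). Rgs1 to Rgs2 was the steadiest ratio of the grafts at -3.17 ± 0.0899 (SD, n = 4), with -2.03, -3.72 and -3.72 in the naive libraries (difference -0.01, exact permutation p = 0.914, adjusted 0.914). No ratio could pass, since 3 against 4 libraries give no exact p below 0.05714, and 2 against 4 none below 0.1333.

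Because the share of ILC2 RNA differed between libraries, each gene was also set against the summed counts of the 10 ILC2 markers, a scaling chosen after the data had been seen. On this scale Gpr183 was 0.983%, 0.551% and 1.31% in naive 1 to 3 and 3.11%, 2.38%, 2.54% and 2.29% in the grafts, so that the groups stayed apart. The share of all genes that separate on this scale was not computed (12.5% did in this direction on CPM). Klf2 was 1.20%, 8.11% and 2.51% in the naive libraries and 0.983%, 1.04%, 0.975% and 1.25% in the grafts, with 3 of 4 grafts below every naive library. S1pr1 was 0.165%, 2.52% and 0% against 0.385%, 0.362%, 0.190% and 0.329%, and naive 2 was the highest library. Rgs2, at 38.3%, 26.1% and 52.3% against 59.0%, 47.7%, 52.6% and 48.3%, differed far less between naive 2 and the rest than in CPM. Cd69 was 7.21%, 4.06% and 16.0% against 10.2%, 9.44%, 10.5% and 7.21%. Rgs1 was 17.95%, 3.80% and 7.60% against 13.03%, 9.98%, 11.8% and 9.45%, and S1pr4 was 1.04%, 0.368% and 0.231% against 0.718%, 0.666%, 0.628% and 0.578%. In naive 2, Gpr183, Rgs2, Cd69 and Rgs1 were still the lowest of the 7 libraries and S1pr4 was above naive 3 alone, while Klf2 and S1pr1 were the highest. These positions depend on 1 marker, since Id2 gave 977 of the 1152 CPM of the marker sum in naive 2. Elsewhere Id2 stood at 4338 to 7565 CPM, with marker sums of 10106 to 14707 CPM. A scale without Id2 was not made, so the order of naive 2 on such a scale is not known. With this scaling the log2 fold change was 1.45 for Gpr183 and -1.89 for Klf2 (adjusted p = 0.342 for both, edgeR's quasi-likelihood test), and 0 genes of the whole table passed. The Klf2 fold change includes the 8.11% of naive 2, a library with 533 CPM of endothelial genes. The part of RNA of other cell types in the Klf2 and S1pr1 values of naive 2 was not tested.

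**Figure D4:**
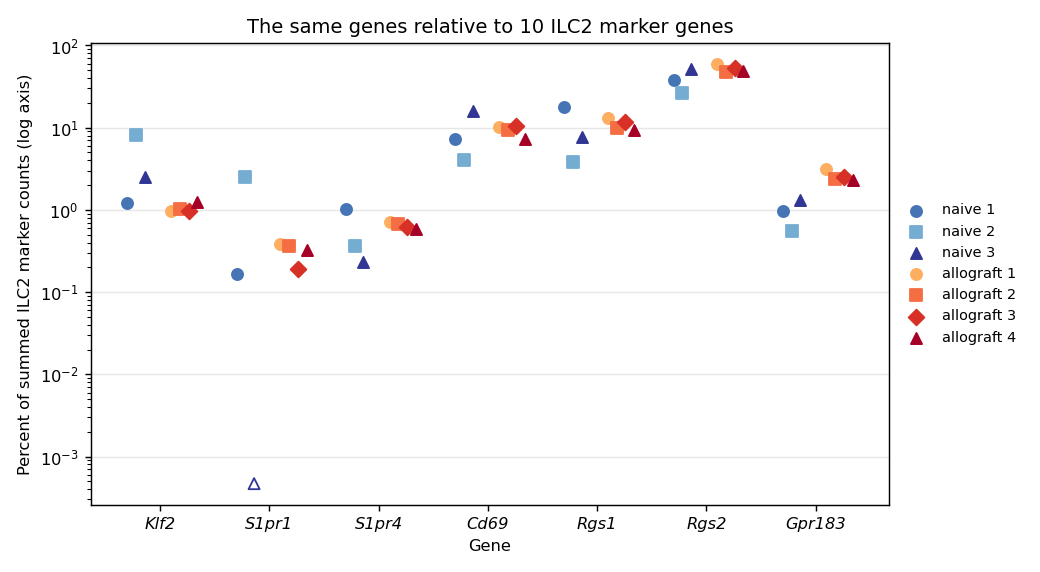
Counts of the 7 genes as percent of the summed counts of 10 ILC2 markers in the same library (log axis), with 1 point a library, naive in blue and allograft in orange to red, and the open triangle marking S1pr1 in naive 3 at the level of 3 counts. Gpr183 keeps its 4 graft points (2.29% to 3.11%) above the naive points (0.551% to 1.31%), and naive 2 is the highest point for Klf2 (8.11%) and S1pr1 (2.52%).

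The other genes of these pathways were taken as 6 lists with 68 genes besides the 7, of which 60 were tested. None of the 60 passed the threshold with all libraries, 5 were higher and 2 lower at an unadjusted p under 0.05 (of all 17015 genes 1091 and 657 were), and their median log2 fold change was 0.20 against -0.01 over all genes. Without naive 2 these medians were 0.25 and 0.23. Without naive 2, where 3.1% of all genes passed, 8 of the 60 did, all of them higher in the grafts and all with at most 3 counts in both remaining naive libraries. Among them were Sphk1, Rgs9, Rgs11, Hsd3b7, Cyp27a1, Itgae and Itga1. In naive 2 each of these had more than 3 counts, and Sphk1, Rgs11, Hsd3b7 and Itga1 were higher there (6.68, 23.1, 25.3 and 51.1 CPM) than in any graft.

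In the list of S1P receptors, synthesis and export, 0 of 11 tested genes (13 listed) passed, 0 were under an unadjusted p of 0.05, and the median log2 fold change was -0.84, but -0.01 without naive 2. Sgpl1, which encodes the lyase that breaks S1P down, was lower in every graft than in every naive library, with 20.4, 14.1, 18.4 and 14.0171 CPM in the grafts against 25.7, 28.0 and 21.6 CPM (log2 fold change -0.84, adjusted p = 0.605, and -0.54 with adjusted p = 0.484 without naive 2). Spns2, the S1P exporter of endothelium, was found almost only in naive 2, at 17.6 CPM against 0 to 0.963 CPM in the other libraries (adjusted p = 0.575). S1pr5, an S1P receptor of natural killer cells, had no count in any naive library and 0.721 CPM in a single graft, and was not tested.

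Among the 14 residency and quiescence regulators, 0 passed and 2 were higher and 1 lower at an unadjusted p under 0.05, with a median of 0.40, which was 0.05 without naive 2. Tcf7, which encodes the lymphoid transcription factor TCF-1, stood at 44.4, 21.5, 43.9 and 48.2 CPM in the grafts against 0.943, 0.857 and 4.68 CPM in naive 1 to 3 (log2 fold change 4.06, adjusted p = 0.144, and 3.75 with adjusted p = 0.0717 without naive 2), and all 4 grafts were above all naive libraries. Zfp683, which encodes HOBIT, a regulator of resident lymphocytes, had no count in the naive libraries and 2.43, 4.75, 1.76 and 1.13 CPM in the grafts. With each naive library set to 3 counts, the grafts were 39.5-fold higher (adjusted p = 0.144, and 0.0502 without naive 2, edgeR's quasi-likelihood test). Klf4, a close relative of Klf2, followed it: 106, 70.1 and 899 CPM in naive 1 to 3 and 58.8, 80.5, 75.5 and 99.4 CPM in the grafts (log2 fold change -2.29, adjusted p = 0.344, and -2.75 with adjusted p = 0.0991 without naive 2).

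The RGS family gave 0 of 12 tested genes past the threshold (16 listed) and a median of 0.30, or 0.24 without naive 2. Rgs10 was higher in every graft than in every naive library, at 76.7, 105, 70.1 and 92.4 against 57.2, 5.34 and 16.4 CPM (log2 fold change 1.66, adjusted p = 0.428, and 1.19 with adjusted p = 0.254 without naive 2). Rgs5, known from pericytes, was listed at 175 CPM in naive 2 and at 0 to 7.15 CPM elsewhere (adjusted p = 0.699). Rgs13, which lies between Rgs1 and Rgs2 on the chromosome, had 0.710 CPM in allograft 2 and no count in the other libraries.

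Of the 13 genes for G proteins and receptor desensitization, 0 passed and the median was 0.09, or 0.08 without naive 2. Gna12 was at 11.2, 10.985, 11.5 and 16.4 CPM in the grafts and 27.96, 11.9 and 41.98 CPM in naive 1 to 3 (log2 fold change -1.25, adjusted p = 0.417, and -1.54 with adjusted p = 0.0968 without naive 2). Gnai2, the main inhibitory G protein alpha chain of lymphocytes and the partner of S1PR1 and GPR183, was at 444, 425, 410.1 and 539 CPM in the grafts against 359, 67.4 and 207 CPM, with all 4 grafts above all naive libraries (log2 fold change 1.02, adjusted p = 0.513, and 0.64 with adjusted p = 0.249 without naive 2). In the oxysterol list 0 of 3 tested genes (5 listed) passed, with a median of 0.88. Without naive 2, 2 of the 3 passed and the median was 10.82, or 6.49 with the naive level of the 2 genes set to 3 counts. Hsd3b7 and Cyp27a1, enzymes of oxysterol metabolism, had no count in naive 1 and naive 3, 25.3 and 6.15 CPM in naive 2, and 2.61 to 7.54 and 4.43 to 7.71 CPM in the grafts (adjusted p = 0.941 and 0.953). Without naive 2, and with naive 1 and naive 3 set to 3 counts, they were 94.6-fold and 90.1-fold higher in the grafts (adjusted p = 0.0413 and 0.0372, edgeR's quasi-likelihood test). Hsd3b7 in naive 2, however, exceeded every graft.

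Surface genes of circulation and residency showed 0 of 14 past the threshold, 2 higher and 0 lower at an unadjusted p under 0.05, and a median of 0.95, or 0.76 without naive 2. Ccr7, the receptor for entry into lymphatic vessels and lymph nodes, had the smallest p of all 60 genes. It was at 5.37, 13.2 and 29.2 CPM in naive 1 to 3 and at 269, 198, 247 and 199.8 CPM in the grafts (log2 fold change 3.62 ± 0.624 SE, unadjusted p = 0.00051, adjusted p = 0.144, and 3.66 with adjusted p = 0.0577 without naive 2). Itgae, which encodes the integrin chain CD103 of resident lymphocytes, was at 31.2, 25.6, 27.3 and 22.1 CPM in the grafts and at 0, 0.154 and 0 CPM in the naive libraries (log2 fold change 8.47, adjusted p = 0.144). Without naive 2, and with naive 1 and naive 3 set to 3 counts, it was 423-fold higher in the grafts (adjusted p = 0.0161, edgeR's quasi-likelihood test). Both of those naive libraries had few genes detected, so this fold is not a lower bound. Ccr7, named for egress, and Itgae and Zfp683, named for residency, thus all stood higher in the 4 grafts, none past the threshold with all 7 libraries and only Itgae of these 3 without naive 2. B cells and T cells express Ccr7, T cells express Tcf7 and Itgae, and the B cell, T cell and natural killer cell sums of the grafts stood at 89.98 to 146, 1069 to 1270 and 35.1 to 59.1 CPM, with the naive values given before. Their part in the values was not tested.

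**Figure D5:**
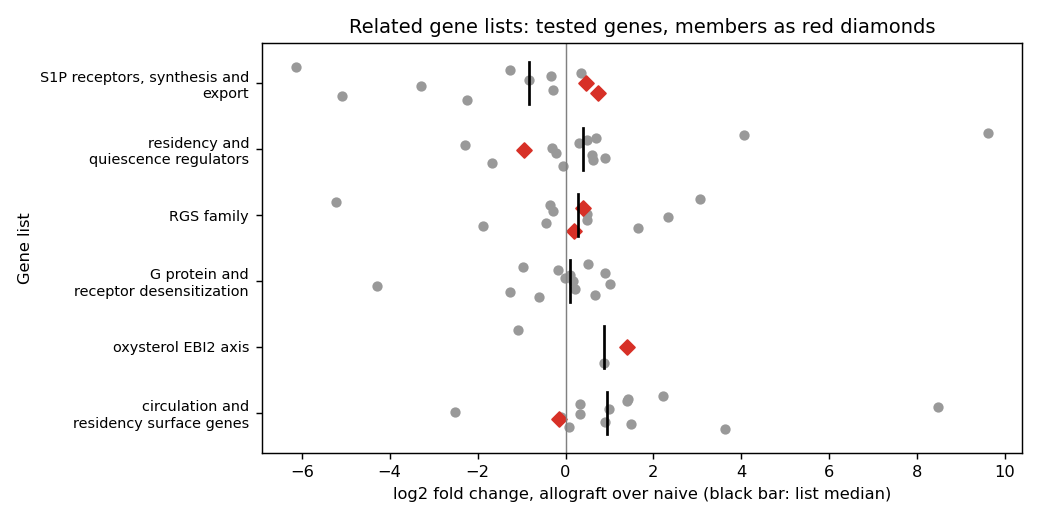
Log2 fold change (allograft over naive, edgeR, all 7 libraries) of every tested gene of the 6 lists, with the 7 retention and egress genes as red diamonds, other genes as grey points, and the median of each list as a black bar. List medians run from -0.84 (S1P) to 0.95 (circulation and residency surface genes), and no gene passed the threshold.

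The genes most like each member were taken by Pearson's r of log2 CPM over the 7 libraries among 8831 genes with a symbol and a mean of at least 10 CPM. The 7 points share the low ILC2 content of naive 2, so r is a description and is also given over the other 6 libraries. Klf2 was most like Klf4 (r = 0.992 over 7 and 0.996 over 6 libraries), Dusp12 (0.981 and 0.982) and N4bp2l2 (0.974 and 0.974). For S1pr1 the nearest genes were Slc41a3 (0.999 and 0.999), Pam16 (0.998 and 0.998) and Chchd5 (0.998 and 0.999). S1pr4 ran with Pitpna (0.999 and 0.991), Gm14005 (0.998 and 0.985) and Mad2l1 (0.997 and 0.982). Cd69 ran with Sub1 (0.997 and 0.966), Rab27b (0.995 and 0.976) and Mfng (0.995 and 0.951). Rgs1 was nearest to Cxcr6 (0.999 and 0.960), the gene of a chemokine receptor of tissue lymphocytes, then to Glipr1 (0.998 and 0.934) and Aprt (0.997 and 0.981). Rgs2 was nearest to Tcrg-C1 (0.998 and 0.938), Gpr65 (0.997 and 0.938) and Gm6210 (0.997 and 0.937). Gpr183 was nearest to Cd3g (0.999 and 0.980) and Trbc2 (0.998 and 0.981), transcripts of the T cell receptor complex, and to Snhg15 (0.998 and 0.988). In the grafts Cd3g stood at 175 to 219 CPM, Trbc2 at 383 to 481 CPM and Cd3e at no more than 1.24 CPM, and the part of T cell RNA in the Gpr183 values was not tested. Without naive 2 the r of the genes nearest to Cd69, Rgs1 and Rgs2 dropped to between 0.934 and 0.981, while those of Klf2 and S1pr1 stayed at 0.974 or above. For these 2 genes naive 3 stood apart and remained among the 6 libraries, with 0 counts of S1pr1 and 369 CPM of Klf2. Their r without naive 3 was not computed, so the high values may rest largely on that library.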

How the data were processed

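RNA of sorted mouse heart ILC2s was sequenced in 7 pooled libraries, grouped by their titles. The authors deposited whole-number counts per gene and FPKM. FastQC 0.11.5, STAR 2.5.3a, StringTie 1.3.1c, DESeq2 1.16.1 and mm10 are named in the submitters' processing notes, and strand and filters are not given in the sources used here. Over 7340 genes with at least 100 counts in each library, FPKM per count was constant to a relative SD of 0.00315. CPM was computed from the deposited totals.

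Counts were compared with edgeR 4.0.16 in R 4.3.3 by its quasi-likelihood test, with TMM, filterByExpr, Benjamini-Hochberg over 17015 genes at 0.05, tested on simulated data. The pools are separate samples, and p-values measure the spread between pools. Alternatives were DESeq2 1.42.0, its size factors, no filter, a mean of at least 50 counts, thinning to equal totals, limma 3.58.1 on log2(FPKM + 1), a replicate block, each library left out and, added after seeing the data, ILC2 marker scaling.

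Members and lists were chosen with earlier results of these data known. Named besides the 7 members were, by rule, the 2 genes of each list with the smallest p (none passed) and the 3 most alike genes per member. Other genes were named after their values were seen.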

Additional observations from a re-analysis of the deposited data

Results flagged for a closer look

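In groups of 4 libraries, 3 of 19 values examined stood apart from the other 3 grafts by Dixon's criterion, where chance gives about 1 in 20 (0.95). The log2 ratio of S1pr1 to S1pr4 was -2.07 in allograft 3 against -1.25 to -1.17 in the other grafts, which follows its S1pr1 level of 20.6 CPM, the lowest of the 4. The ILC2 marker sum was 10106.5 CPM in allograft 4 against 10690 to 10809 CPM. The myeloid marker sum was 300.1 CPM in allograft 1 against 185 to 195 CPM, with Lyz2 at 191 CPM. Their part in the results for the 7 genes was not tested.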

How the results depend on the processing

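With every one of 15 alternatives, 0 of the 7 genes passed the threshold, Klf2 stayed below 0 (log2 fold change -1.89 to -0.23, adjusted p 0.186 to 1) and Gpr183 above 0 (0.84 to 2.30, adjusted p 0.240 to 1). For Klf2 the value nearest to 0 came without naive 3, its highest library, which every other alternative kept. Apart from Klf2 and Gpr183, the genes changed sign: Cd69 (all libraries -0.14) was 1.06 with limma on FPKM, 0.96 with a replicate block, 0.036 with ILC2 marker scaling and -0.71 to 1.28 with a library left out. Leaving out a library gave -0.39 to 0.93 for Rgs1, -0.15 to 1.31 for Rgs2 and -0.086 to 1.72 for S1pr4, and ILC2 marker scaling gave -1.50 for S1pr1. Ratio differences ranged from -5.34 to 1.85 (Cd69 over S1pr1, 1.85 without naive 3), -0.30 to 0.55 (Rgs1 over Rgs2, 0.55 without naive 1 and 0.02 without allograft 4) and -1.14 to 4.72 (S1pr1 over S1pr4, -1.14 without naive 3). Of the other pathway genes, 0 of 60 tested passed in the main test, 5 of 66 with DESeq2, 3 of 48 with limma on FPKM, 1 of 62 without naive 1, 8 of 60 without naive 2, and 0 to 8 over the libraries left out. The median of the oxysterol list (0.88) was 7.81 with the replicate block, 10.82 without naive 2 and -1.46 with DESeq2, that of the S1P list (-0.84) was 0.62 with the block and -0.01 without naive 2, and ILC2 marker scaling gave -1.31 for the G protein list and -0.60 for the residency list, where the median over all genes was -1.25. Over the whole table, 6 genes passed in the main test, 1249 with DESeq2, 83 with limma on FPKM, 107 without naive 1, 560 without naive 2 and 0 with a replicate block, ILC2 marker scaling or any graft left out. Same-numbered naive and allograft libraries did not deviate together (r of 0.0169, -0.0196 and 0.0360), and differently numbered ones had r of -0.087 to 0.076. With so few pools, whose naive members differ strongly in content, these values cannot show whether the numbers stand for shared batches. The causes were not tested. Depth limits what can be said of genes near 3 counts. The low number of genes detected in naive 1 and naive 3 limits what can be said of genes with 0 counts there. In naive 3 this reached 7.36% of the genes with a mean of 20 to 50 CPM in the grafts. The number and spread of the naive pools limit the precision of all genes.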
